A study of Mus musculus with 18 samples.

Results

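Of the 27179 genes in the study's table of read counts, 35 were taken as NF-kB and inflammatory genes: transcription factors of the NF-kB family, the proteins that hold them back, and cytokines, chemokines and effectors that NF-kB is known to induce. They were chosen by name, by matching the gene IDs of the table to their symbols, and all 35 were found. After a filter on low counts 33 of the 35 could be tested. Interleukin genes Il1a and Il1b failed that filter, with 92 and 177 reads in all 18 libraries together.

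NF-kB is a family of dimeric transcription factors built from the products of Nfkb1, Nfkb2, Rela, Relb and Rel. In resting cells the dimers are kept in the cytoplasm by IkB proteins such as the product of Nfkbia. Signals from tumour necrosis factor, interleukin 1, Toll-like receptors or RANK lead to breakdown of the IkB protein, and the freed dimers switch on inflammatory genes together with their own inhibitors, among them Nfkbia and Tnfaip3. In the mammary gland the pathway is known for its part in the proliferation of luminal cells downstream of RANK, and luminal progenitors are known for expressing many innate immune genes.

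Bulk RNA sequencing had been done on 3 populations sorted from the mammary epithelium of female mice aged 14 weeks: basal cells, luminal progenitors (LP) and mature luminal cells (ML), which the sample names code as P5, P7 and P8. The KO mice are given as MMTV-cre(T/+) with Brca2(delta/delta) and Trp53(delta/+), that is, with both copies of the DNA repair gene Brca2 and a single copy of the tumour suppressor Trp53 deleted, and carry the genotype label Brca2KO, although their titles speak of a knockdown. The controls are labelled WT, yet MMTVcre with Brca2(fl/fl) and Trp53(fl/+) is given as strain for all 18 libraries, those of the WT mice too, so whether the controls carried the transgene or the floxed alleles cannot be read from the labels. Cre was driven by the MMTV promoter, which is active in mammary epithelium and a few other tissues. How far the deletion reached in each of the 3 populations cannot be read from the labels. Each of the 3 KO and 3 WT mice gave 1 library of each population. Libraries are named here by population, genotype and replicate, and the same replicate number within a genotype is the same mouse, whereas KO replicate 1 and WT replicate 1 are different mice. Levels are in CPM, read counts brought to a common library total and scaled between libraries by the TMM method.

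Total reads assigned to genes ranged from 5.97 M to 39.19 M per library. Trp53 was lower in the KO libraries of all 3 populations. Its level was 22.7 ± 11.6 CPM in KO against 74.9 ± 16.2 in WT basal cells (SD, n = 3; log2 fold change -1.72, SE 0.33, adjusted p = 0.00341), 8 ± 0.934 against 96.7 ± 46.5 in LP (-3.6, SE 0.35, adjusted p = 5.32e-06) and 15.2 ± 1.72 against 45.3 ± 5.09 in ML (-1.57, SE 0.33, adjusted p = 0.00234). The direction in all 3 populations is that of the KO label. Each estimate is a larger fall than loss of a single copy, the deletion labelled, would give with the other copy's level unchanged. Whether the size departs from such a loss was not tested. The whole-gene count of Brca2 was not called lower in any of them and does not test an exon deletion. The sorts carried their own markers: the summed basal markers reached 16700, 16400 and 19400 CPM in the basal WT libraries and 16.3, 14.3 and 17 in the ML WT libraries. The ML KO libraries stood apart from the ML WT libraries on the same lists. Their summed LP markers were 1200, 371 and 613 CPM against 137, 128 and 153, their summed basal markers 503, 545 and 483 against 16.3, 14.3 and 17, and their summed ML markers 870, 3150 and 3910 against 7880, 7960 and 6590. In these bulk samples fewer cells of a type and less RNA per cell cannot be told apart.

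**Figure D1:**
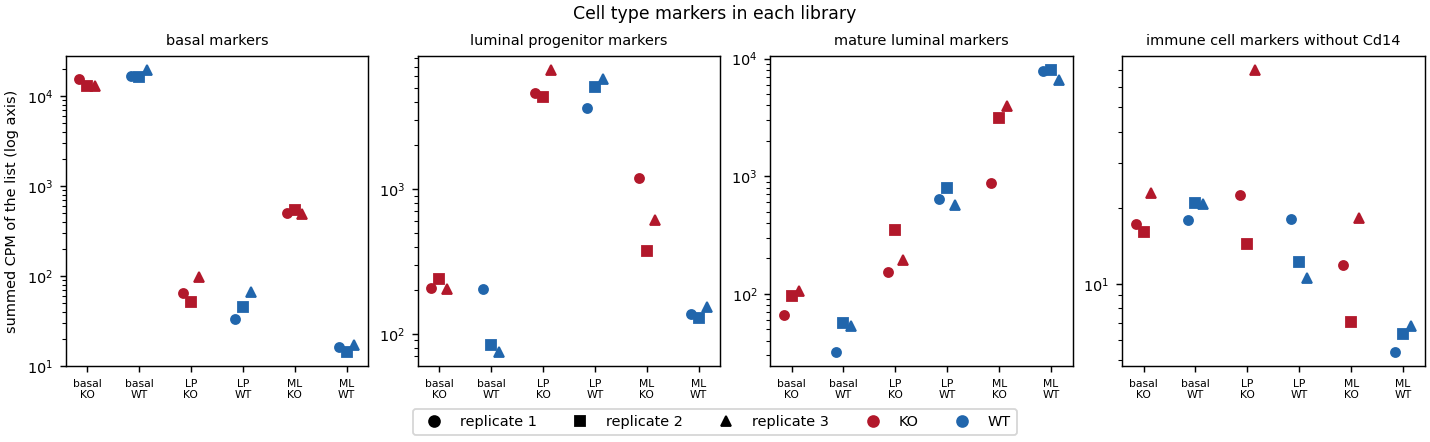
Summed CPM (log axis) of 4 lists of cell type markers in each of the 18 libraries, with the 6 groups on the horizontal axis, colour for genotype and symbol for replicate. The 3 ML KO libraries sit above the ML WT libraries for LP and basal markers and below them for ML markers, and ML KO replicate 1 is the farthest from WT on the LP and ML lists.

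Per kilobase of counted gene length, the level of the genes spanned a wide range within each population. In LP WT cells the mean level in CPM per kilobase (RPKM) was highest for Lcn2, an iron-sequestering secreted protein, at 3340, followed by the neutrophil chemokine genes Cxcl1 at 1410 and Cxcl2 at 846 and the IkB gene Nfkbia at 806. Basal WT cells had Lcn2 (2420), the adhesion molecule gene Icam1 (735) and Cxcl1 (351) at the top on the RPKM scale. In ML WT cells the order was different, with Nfkbia (208), the subunit gene Rela (73.6) and Lcn2 (67.8) as the top RPKM values. Ccl20 and Cd83 had no read in any ML WT library.

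**Figure D2:**
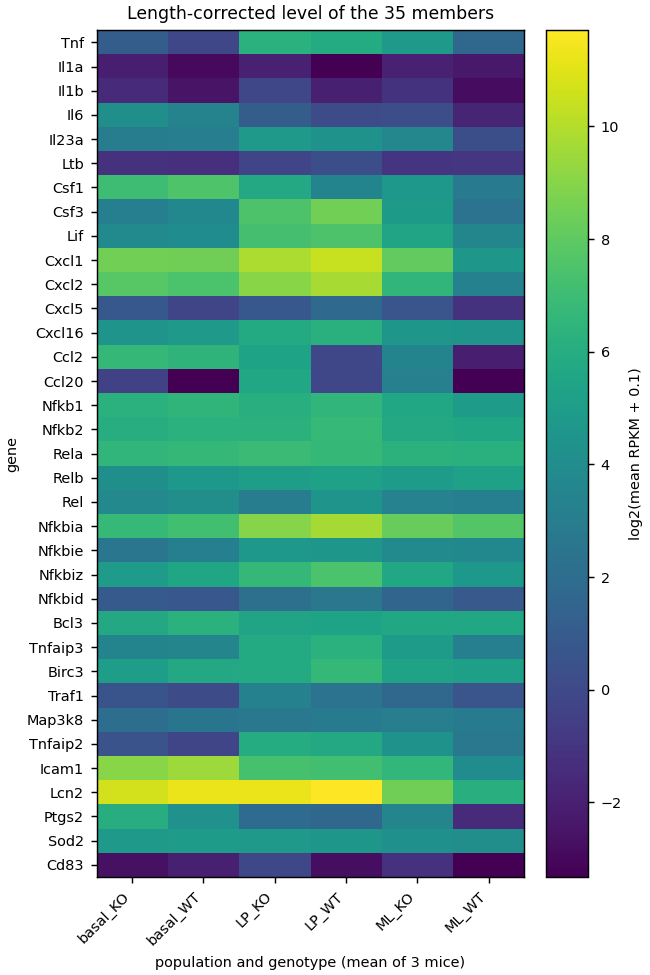
Mean RPKM of 3 mice on a log2 scale with 0.1 added, for the 35 genes (rows) in the 6 groups (columns). The LP columns are bright for Tnf, Lif, Cxcl1 and Cxcl2, the basal columns are the brightest for Csf1, Il6 and Ccl2, and the ML KO column lies between the ML WT and LP columns for Tnf, Lif and Cxcl1.

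In WT mice these genes were most often higher in LP cells than in ML cells. Against ML cells, 22 of the 33 genes tested were higher in LP and 0 lower, where 33.7% of all genes tested differed in either direction with 17.6% higher and 16.1% lower in LP. The 22 included 4 of 7 cytokines, 4 of 6 chemokines, 3 of 5 NF-kB subunits, 4 of 5 IkB proteins, 3 of 4 signal regulators and 4 of 6 effectors and surface proteins. Lcn2 showed the lowest p: it stood at 4320, 2710 and 1510 CPM in the LP WT libraries and 41.3, 34.9 and 97.2 in the ML WT libraries, a log2 difference of 5.61 (SE 0.53, adjusted p = 2.12e-07). Tumour necrosis factor, Tnf, stood at 123, 93.4 and 73.7 CPM in LP against 9.03, 2.42 and 4.36 in ML, a log2 difference of 4.29 (SE 0.42, adjusted p = 2.8e-07). The groups did not overlap for either gene, as for 45.3% of all genes tested in either direction and 22.8% with LP higher. Tnfaip3 (A20, a ubiquitin-editing enzyme that ends NF-kB signalling), Nfkbiz (a nuclear IkB protein), Icam1 and Il23a (a subunit of interleukin 23) were the next in order, with log2 differences of 3.13, 2.76, 3.19 and 4.25 and adjusted p between 2.1e-06 and 2.09e-05. Their LP WT means were 361 ± 54.1, 688 ± 293, 364 ± 42.3 and 27.6 ± 10.6 CPM (SD, n = 3), and their ML WT means 41.5 ± 10.2, 101 ± 24.9, 39.9 ± 12 and 1.52 ± 0.428. The median log2 difference of the 33 genes was 2.73, or 1.96 with Ccl20 and Cd83, unread in ML WT, set at their lower bounds, against 0.01 for all genes tested. Without WT replicate 3 the log2 difference of Lcn2 was 6.54 and that of Il23a 3.61, and without WT replicate 1 that of Lcn2 was 5.01.

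Between basal cells and LP cells the direction depended on the gene. Between WT LP and basal cells 15 genes were higher in LP and 6 higher in basal cells, with 37.1% of all genes tested called, 17.3% higher in LP and 19.8% higher in basal cells. Tnf was low in basal cells, at 1.09, 1.76 and 1.13 CPM in the basal WT libraries, and its log2 difference, LP minus basal, was 6.13 (SE 0.47, adjusted p = 2.52e-09). Tnfaip2, a TNF-induced gene of membrane protrusion, followed the same pattern, with 192 ± 111 CPM in LP and 2.76 ± 0.95 in basal WT cells (SD, n = 3), a log2 difference of 6.17 (SE 0.58, adjusted p = 9.98e-08). Nfkbia and Tnfaip3, both feedback inhibitors, were higher in LP by 2.53 and 2.77 on the log2 scale, at adjusted p = 2.6e-06 and 3.18e-06. Genes of the opposite pattern included Ccl2, which attracts monocytes, with 26.7, 108 and 75.8 CPM in basal WT and 0.617, 0.667 and 0.736 in LP WT libraries, and Icam1, with 1280, 2190 and 2130 against 327, 356 and 410. Their log2 differences, LP minus basal, were -6.67 (SE 0.90, adjusted p = 7e-06) and -2.36 (SE 0.37, adjusted p = 3.26e-05). Neither gene's groups overlapped, which held for 44.2% of all genes tested, 20.4% with LP higher and the rest with basal cells higher. Il6, Ptgs2, Csf1 and Bcl3 were the other 4 that were higher in basal cells. The summed fibroblast markers were 416, 389 and 499 CPM in basal WT, 57.5, 40.6 and 33 in LP WT and 50.2, 170 and 272 in ML WT libraries. Those of endothelial cells and pericytes were 52.9, 55.3 and 69.5 CPM in basal WT and 24.8, 15 and 13.1 in LP WT libraries. The part of such cells in the basal levels was not tested.

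ML WT cells were below basal WT cells for 15 of the genes and above them for 3, where 54.5% of all genes tested were called, 28.9% below and 25.7% above. Icam1 had the lowest p, at 1870 ± 512 CPM in basal WT and 39.9 ± 12 in ML WT cells (SD, n = 3), a log2 difference, ML minus basal, of -5.55 (SE 0.42, adjusted p = 1.77e-09). Lcn2 (-5.15), Ptgs2 (-5.82), Ccl2 (-9.40) and Il6 (-6.44) were also far lower in ML on the log2 scale, at adjusted p from 9.38e-08 to 1.6e-06. The libraries of these 5 genes did not overlap between ML and basal cells. That held for 61.3% of all genes tested, 28.7% with ML higher and the rest with basal cells higher. Ptgs2 encodes the inducible cyclooxygenase, and Il6 a cytokine that signals through STAT3. Tnfaip2 (3.07), Tnf and Relb were the 3 genes higher in ML than in basal cells. The Ccl2 level in ML WT cells rests on 4 reads, all in replicate 2, so that without that mouse ML WT has no read and Ccl2 was at least 437-fold higher in basal cells against a floor of 3 reads over the ML group (adjusted p = 0.00028). Without WT replicate 3 the Ptgs2 difference was -7.8 and that of Lcn2 -5.95, and without WT replicate 1 that of Il6 was -7.53. The call on Tnf, 1.83 on the log2 scale at adjusted p = 0.00265, was lost without WT replicate 1 (1.18, adjusted p = 0.07). That on Relb (0.57, adjusted p = 0.0359) was lost in 7 of 12 alternatives, among them DESeq2 (adjusted p = 0.054), RLE scaling (0.062), no filter on low counts (0.093) and thinning (0.078).

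In basal cells 0 of the 33 tested genes were called higher or lower in KO mice, where 3.15% of all genes tested were called, 2.96% higher and 0.188% lower. By edgeR 3 of the 33 had an unadjusted p under 0.05, and DESeq2 called 2, Ptgs2 (adjusted p = 0.029) and Ccl20 (adjusted p = 0.049). Ptgs2 was closest to the threshold: it stood at 305, 314 and 194 CPM in the KO libraries and 40.2, 124 and 76.8 in the WT libraries, a log2 fold change of 1.75 (SE 0.48, adjusted p = 0.0555). The groups did not overlap, as was the case with KO higher for 3 of the 33 genes and 10.8% of all genes tested, and in either direction for 6 and 17.6%. The chemokine gene Ccl20 had 39 reads in the basal KO libraries and 0 in the basal WT libraries, which is at least 10.9-fold higher against a floor of 3 reads over the WT group, at adjusted p = 0.608. The median log2 fold change of the 33 genes was -0.17, against -0.02 for all genes tested, and all 5 NF-kB subunit genes were between -0.52 and -0.15 without a call. Beside this, 2 of 7 LP markers (Kit and Ltf) and 1 of 7 ML markers (Ly6a) were higher in basal KO, and 0 of 13 tested immune markers were called. Their part was not tested.

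**Figure D3:**
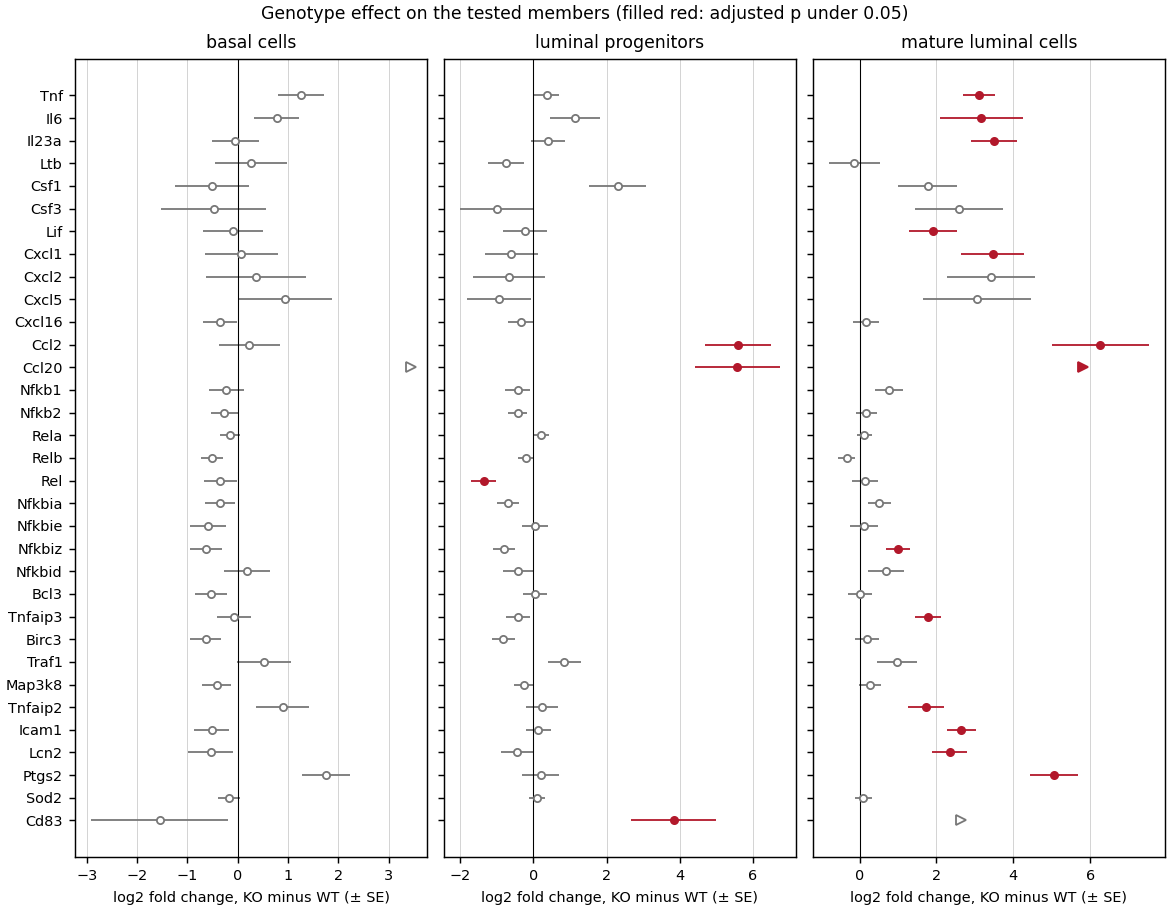
Log2 fold change, KO minus WT, of the 33 tested genes in basal, LP and ML cells, with bars for 1 SE and filled red symbols for an adjusted p under 0.05. Triangles mark lower bounds for genes with no read in any WT library (Ccl20 in basal and ML cells, Cd83 in ML cells), which have no SE. Red symbols are absent in basal cells, number 4 in LP and 13 in ML, and the ML points lie to the right of 0 for 31 of 33 genes.

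In LP cells 4 of the 33 genes passed the test, with Ccl2, Ccl20 and Cd83 higher in KO mice and Rel lower. The share among all genes tested was 14.9%, with 8.28% higher and 6.63% lower, so the count lies near the background. Of all reads, 3163 of 3522 for Ccl20 and 148 of 209 for Cd83 were in the LP KO libraries. Both genes passed the filter on low counts mainly through KO libraries, so a call as lower in LP was hardly open to them. Ccl2 (chr11:82035577-82037452; positions are RefSeq's for GRCm38.p6) stood at 60.8, 16.3 and 22.8 CPM in the KO and 0.617, 0.667 and 0.736 in the WT libraries, a log2 fold change of 5.59 (SE 0.89, adjusted p = 0.000503). All 3 KO libraries were above all 3 WT libraries. In basal cells Ccl2 was high in both genotypes, at 93.7, 54.5 and 99.6 CPM in KO and 26.7, 108 and 75.8 in WT. Ccl20 (chr1:83116766-83119167), whose product attracts CCR6-bearing lymphocytes and dendritic cells, stood at 76, 18.4 and 22.5 CPM in LP KO and 0.37, 0 and 1.59 in LP WT libraries, a log2 fold change of 5.57 (SE 1.16, adjusted p = 0.00828). It was low in basal cells, at 0.703, 0.623 and 0.222 in KO and 0 in all 3 WT libraries. Without KO replicate 1, the highest library for both chemokines, the log2 fold changes were 4.82 for Ccl2 and 4.64 for Ccl20, and without WT replicate 3 that of Ccl20 was 7.75.

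Rel (chr11:23736847-23770969) encodes the c-Rel subunit. It was at 26.8, 29.4 and 8.33 CPM in LP KO and 60.8, 60.7 and 44.8 in LP WT libraries, and fell by 1.36 on the log2 scale (SE 0.33, adjusted p = 0.0106). The groups did not overlap, and LP KO replicate 3 was the lowest of the 18 libraries. Rel was at 38.6, 29.5 and 35.1 CPM in basal KO, 29.4, 54.3 and 48 in basal WT, 26.3, 27.1 and 23.6 in ML KO and 24.4, 24.2 and 21.4 in ML WT libraries, without a call. The call in LP was lost without WT replicate 2 (adjusted p = 0.073) and with only the 6 LP libraries in the fit (adjusted p = 0.086). The other 4 subunit genes had log2 fold changes between -0.43 and 0.22 in LP.

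Cd83 (chr13:43785112-43803133), a surface protein of activated dendritic and B cells, was scarce in all libraries. It had 148 reads in LP KO and 4 in LP WT libraries, or 3.79, 0.279 and 1.55 against 0.123, 0 and 0.184 CPM, a log2 fold change of 3.84 (SE 1.16, adjusted p = 0.028). In the other groups it stood at 0.216, 0.0271 and 0.148 in basal KO, 0.624, 0.144 and 0.188 in basal WT, 1.69, 0.0828 and 0.475 in ML KO and 0 in all 3 ML WT libraries. The LP call was lost without KO replicate 1 (2.84, adjusted p = 0.095) and without KO replicate 3, and the fold change was 4.44 without KO replicate 2 and 4.8 without WT replicate 3. Leaving out any 1 WT mouse also ended it. Markers of immune cells moved with genotype in LP: 5 of the 13 tested (Gzma, Csf1r, Laptm5, Cd52 and Coro1a) were called higher in KO, with means of 0.897 to 4.74 CPM in LP KO, and the sum of 30 markers without Cd14, which LP cells express themselves, was 22.4, 14.4 and 70 CPM in KO against 18.1, 12.2 and 10.5 in WT libraries. The pan-leukocyte marker Ptprc was at 0.334, 0.167 and 1.09 CPM in LP KO libraries, and the T cell marker Cd3e at 0.25, 0.0279 and 0. Their part in the LP results was not tested.

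Of the other LP genes, Csf1, the macrophage growth factor, missed the threshold, at 464, 148 and 101 CPM in KO and 53.9, 39.6 and 51.1 in WT libraries, a log2 fold change of 2.30 (SE 0.78, adjusted p = 0.0573) by edgeR. It was called by DESeq2 (adjusted p = 0.044), by edgeR's default settings (0.045), with only the 6 LP libraries in the fit (0.03) and without KO replicate 3 (0.034). All 3 KO libraries were above all 3 WT libraries, and KO replicate 1 was the highest. Birc3, a ubiquitin ligase at the TNF receptor, and Nfkbiz and Nfkbia had log2 fold changes of -0.82, -0.80 and -0.68, at adjusted p = 0.0785, 0.0854 and 0.137. KO and WT libraries did not overlap for 6 of the 33 genes in LP, 4 with KO higher, against 31% and 17.7% of all genes tested. The median over the 33 genes was -0.22 in LP, against 0.02 for all genes tested. Also in LP, 4 of 7 ML markers (Esr1, Foxa1, Prlr and Cited1) were lower in KO, with sums of 154, 352 and 193 CPM against 635, 787 and 565, and of 8 basal markers 2 were higher (Krt14 and Mylk) and 1 lower (Oxtr). Depth also differed in LP, at 22.42 M to 32.72 M reads in KO and 9.29 M to 16.17 M in WT, and with all libraries thinned to 5.97 M reads 3 genes were called in LP. The part of the markers was not tested.

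In ML cells 13 of the 33 genes were higher in KO mice and 0 lower. Among all genes tested 15.2% were called, 11.8% as higher and 3.5% as lower. Ccl20, counted among the 13, had passed the filter on low counts mainly through KO libraries. By role the 13 comprised 4 of 7 tested cytokines (Tnf, Il6, Il23a, Lif), 3 of 6 chemokines (Ccl2, Ccl20, Cxcl1), 0 of 5 NF-kB subunits, 1 of 5 IkB proteins (Nfkbiz), 1 of 4 signal regulators (Tnfaip3) and 4 of 6 effectors and surface proteins (Ptgs2, Icam1, Lcn2, Tnfaip2). The median log2 fold change was 1.73 over the 33 genes, against 0.02 over all genes tested, and 31 of the 33 were above 0. KO and WT libraries did not overlap for 17 of the 33, all with KO higher, against 37.8% of all genes tested in either direction and 21.6% with KO higher. Median values by role were 2.59 for cytokines, 3.44 for chemokines, 2.49 for effectors and surface proteins, 0.62 for signal regulators, 0.51 for IkB proteins and 0.14 for subunits.

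Among cytokines, Tnf (chr17:35199367-35202007) stood at 71.8, 28.9 and 28.2 CPM in the ML KO and 9.03, 2.42 and 4.36 in the ML WT libraries, a log2 fold change of 3.11 (SE 0.41, adjusted p = 1.88e-05). All 3 KO libraries were above all 3 WT libraries. Tnf was high in LP, at 143, 117 and 111 in KO and 123, 93.4 and 73.7 in WT, and low in basal cells, at 3.13, 3.74 and 2.95 in KO and 1.09, 1.76 and 1.13 in WT. Il23a (chr10:128296140-128298084) was at 33.6, 9.99 and 7.2 CPM in ML KO and 1.58, 1.92 and 1.07 in ML WT libraries, a log2 fold change of 3.49 (SE 0.60, adjusted p = 0.000334), with KO replicate 1 well above the other KO libraries. Without KO replicate 1 the values were 2.53 for Tnf and 2.56 for Il23a, both still called. In the other groups Il23a stood at 60, 30.1 and 20.3 in LP KO, 19, 24.2 and 39.4 in LP WT, 12.2, 11.9 and 8.42 in basal KO and 11.6, 9.26 and 13.3 in basal WT libraries.

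Lif (chr11:4257568-4272514), an interleukin 6 family cytokine that activates STAT3, was at 291, 134 and 101 CPM in ML KO and 71.9, 42 and 27.2 in ML WT libraries, a log2 fold change of 1.91 (SE 0.63, adjusted p = 0.0483). It was highest in LP, at 869, 652 and 341 in KO and 1440, 449 and 282 in WT, and stood at 84.4, 49.9 and 43 in basal KO and 115, 32.6 and 41.9 in basal WT libraries. Il6 (chr5:30013114-30019975) was low in ML cells, at 1.09, 1.3 and 1.07 CPM in KO and 0.475, 0.167 and 0 in WT libraries, with a log2 fold change of 3.17 (SE 1.08, adjusted p = 0.0497). Its level was highest in basal cells, at 20, 28.2 and 8.86 in KO and 11, 14.4 and 8.1 in WT, with 3.17, 2.68 and 0.758 in LP KO and 1.85, 1.22 and 0.306 in LP WT libraries. KO and WT libraries of ML cells did not overlap for either gene, and both calls were lost without KO replicate 1 (adjusted p = 0.25 for Lif and 0.092 for Il6), without KO replicate 2 and without WT replicate 2 or 3. That of Il6 was also lost without WT replicate 1 (4.25, adjusted p = 0.058), and on thinning (0.072), and its value was 2.09 without WT replicate 3. That of Lif was also lost with RLE scaling (adjusted p = 0.052) and with no filter on low counts (0.096). Of the uncalled cytokines, the granulocyte growth factor gene Csf3 had a log2 fold change of 2.59 and Csf1 of 1.77, each with overlapping groups, and Ltb of -0.14.

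Among chemokines, Ccl2 stood at 19.2, 2.6 and 4.07 CPM in ML KO and 0, 0.334 and 0 in ML WT libraries, a log2 fold change of 6.26 (SE 1.26, adjusted p = 0.00163) that rests on 4 WT reads. It was 5 without KO replicate 1 and 5.2 without WT replicate 3, and without WT replicate 2 the WT group had no read and the gene was at least 54.1-fold higher against a floor of 3 reads over the group (adjusted p = 0.014). Ccl20 had 291 reads in the ML KO libraries, at 18.7, 1.13 and 2.41 CPM, and 0 in the ML WT libraries, at least 56.5-fold higher against the floor of 3 reads over the WT group (adjusted p = 0.0224). KO replicate 1 held 189 of the 291 reads, and without it the gene was at least 23-fold higher and still called (adjusted p = 0.009). The call was lost on leaving out any WT mouse, at adjusted p from 0.059 to 0.065, with no filter on low counts (0.065) and with only the 6 ML libraries in the fit (0.18). Cxcl1 (chr5:90891245-90893121), a neutrophil attractant, was at 489, 187 and 91.4 CPM in ML KO and 37.7, 23.9 and 9.8 in ML WT libraries, a log2 fold change of 3.46 (SE 0.81, adjusted p = 0.00758). The groups did not overlap, yet the call was lost without KO replicate 1 (2.58, adjusted p = 0.053) and without WT replicate 2 (adjusted p = 0.061). Cxcl1 was at 1240, 968 and 469 in LP KO, 2710, 1040 and 279 in LP WT, 500, 350 and 206 in basal KO and 450, 395 and 160 in basal WT libraries. Its neighbour and close relative Cxcl2 had a similar log2 fold change of 3.42 (SE 1.15, adjusted p = 0.0582) without a call by edgeR. DESeq2 (adjusted p = 0.017) and edgeR's default settings (0.03) called it, as did edgeR without WT replicate 1 (4.56, adjusted p = 0.0084) and without KO replicate 3 (adjusted p = 0.045). Cxcl5 and Cxcl16 had values of 3.05 and 0.16 without a call. Without WT replicate 1, Cxcl5 had no WT read and 180 KO reads, at least 29.6-fold higher, and was called (adjusted p = 0.0017).

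**Figure D4:**
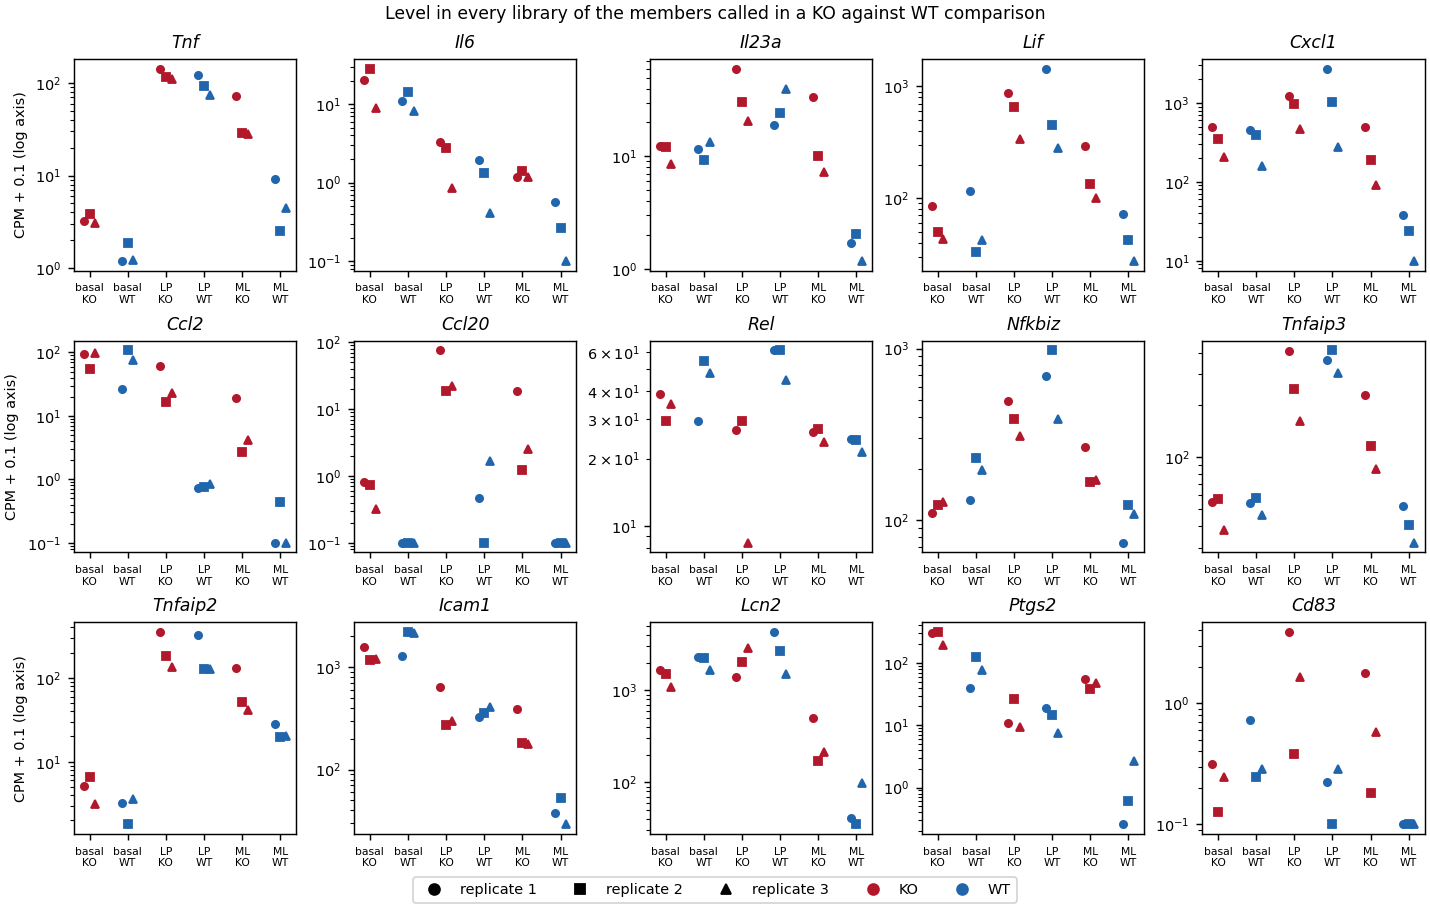
CPM with 0.1 added (log axis) of the 15 genes called in a KO against WT comparison, in each of the 18 libraries, with the 6 groups on the horizontal axis, colour for genotype and symbol for replicate. For the 13 genes called in ML, the 3 ML KO libraries lie above the 3 ML WT libraries, and ML KO replicate 1 is the highest of the 3 for all but Il6.

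For the NF-kB transcription factors themselves, log2 fold changes of the 5 subunit genes ranged from -0.34 for Relb to 0.77 for Nfkb1, and none was called. Of the IkB proteins, Nfkbiz (chr16:55811375-55838954), which acts in the nucleus on a subset of targets such as Lcn2, was at 268, 166 and 171 CPM in ML KO and 73.8, 122 and 108 in ML WT libraries, a log2 fold change of 0.99 (SE 0.31, adjusted p = 0.0356). Its values in the other groups were 492, 387 and 309 in LP KO, 696, 977 and 391 in LP WT, 110, 123 and 127 in basal KO and 131, 230 and 197 in basal WT libraries. The ML call on Nfkbiz was lost without KO replicate 1 (0.73, adjusted p = 0.22) and without WT replicate 1. Nfkbia, Nfkbie, Nfkbid and Bcl3 had values between 0.01 and 0.69. Tnfaip3 (chr10:19000910-19015410) was at 227, 115 and 85.2 CPM in ML KO and 52.3, 40.4 and 31.9 in ML WT libraries, a log2 fold change of 1.78 (SE 0.35, adjusted p = 0.00112), and at 408, 246 and 162 in LP KO, 364, 413 and 305 in LP WT, 55.2, 57.5 and 38 in basal KO and 54.5, 57.9 and 46 in basal WT libraries. The ML groups did not overlap for Nfkbiz or Tnfaip3. The receptor adaptor genes Birc3 and Traf1 and the kinase gene Map3k8 had log2 fold changes of 0.20, 0.97 and 0.27 without a call.

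Among effectors, Ptgs2 (chr1:150100031-150108234) had the lowest p of the set in ML. It was at 55.5, 38.6 and 47.8 CPM in ML KO and 0.158, 0.5 and 2.61 in ML WT libraries, a log2 fold change of 5.05 (SE 0.62, adjusted p = 1.62e-05), or 6.97 without WT replicate 3. In LP its level was below that of every ML KO library, at 10.6, 25.8 and 9.35 in KO and 18.9, 14.3 and 7.42 in WT libraries. Icam1 (chr9:21015940-21028814) was at 389, 182 and 179 CPM in ML KO and 37.5, 52.9 and 29.2 in ML WT libraries, a log2 fold change of 2.65 (SE 0.37, adjusted p = 4.17e-05), and at 635, 273 and 294 in LP KO and 1570, 1170 and 1180 in basal KO libraries. Lcn2 (chr2:32384637-32387739) stood at 498, 170 and 216 in ML KO and 41.3, 34.9 and 97.2 in ML WT libraries, a log2 fold change of 2.34 (SE 0.46, adjusted p = 0.00128), or 1.73 without KO replicate 1 and 2.98 without WT replicate 3. Its LP values were 1410, 2030 and 2880 in KO libraries, and its basal values 1670, 1510 and 1090 in KO and 2310, 2220 and 1660 in WT libraries. Tnfaip2 (chr12:111442450-111455018) was at 131, 51.5 and 41.4 in ML KO and 28, 19.7 and 19.9 in ML WT libraries, a log2 fold change of 1.73 (SE 0.47, adjusted p = 0.0167), lost without KO replicate 1 (1.05, adjusted p = 0.12) and without WT replicate 2 or 3. Tnfaip2 stood at 354, 184 and 136 in LP KO, 321, 127 and 129 in LP WT, 5.03, 6.42 and 3.03 in basal KO and 3.12, 1.69 and 3.48 in basal WT libraries. KO and WT libraries of ML cells did not overlap for any of these 4 genes. Sod2, the mitochondrial superoxide dismutase, had a log2 fold change of 0.10, and Cd83 had 32 reads in ML KO and 0 in ML WT libraries, at least 6.21-fold higher (adjusted p = 0.0986 by edgeR). DESeq2 (adjusted p = 0.0056), edgeR's default settings (0.037), thinning to 5.97 M reads (0.045) and leaving out KO replicate 2 (0.0097) each gave a call on Cd83 in ML.

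The higher values in ML KO stood beside the marker differences given above. Of the LP markers 6 of 7 were called higher in ML KO (Kit, Elf5, Aldh1a3, Cd14, Ltf and Csn3), of the basal markers 6 of 8, and of the ML markers 3 of 7 lower, Esr1, Foxa1 and Cited1. No LP, basal or ML marker was at 0 reads in any group. Of the 13 tested immune markers 3 were higher, Cd14, Cd52 and S100a4, and the immune sum without Cd14 was 11.9, 7.07 and 18.2 CPM in ML KO against 5.38, 6.34 and 6.8 in ML WT libraries. As a share of the mean LP WT sum, LP markers reached 24.9%, 7.71% and 12.7% in the 3 ML KO libraries and 2.66 to 3.17% in the ML WT libraries. On the same scale the median of the 13 called genes was 74.2%, 31.9% and 26.1% of their LP WT mean in the ML KO libraries. Their level was above the marker share for 12, 12 and 11 of the 13 genes in replicates 1, 2 and 3, and below it for Lcn2 in all 3 and for Cxcl1 in replicate 3. The LP WT means of Il6, Ccl2 and Ccl20 were 1.13, 0.673 and 0.655 CPM, on 31, 23 and 29 reads, so their shares say little. The measures also differ: the marker share is a ratio of sums, while the median is over ratios of single genes. Among single LP markers, mean CPM in ML KO against LP WT ran from 130 against 1690 (Csn3) to 37.1 against 100 (Itga2). In the ML WT libraries, too, 8, 9 and 9 of the 13 were above the marker share, with medians of 9.33%, 6.96% and 3.88% of the LP WT mean beside marker shares of 2.84%, 2.66% and 3.17%. The 13 had been chosen for being higher in ML KO, which builds part of the excess there into the choice. Ptgs2 in ML KO libraries was at 410%, 285% and 353% of its LP WT mean. Of the 13 genes, 8 (Ptgs2, Il6, Icam1, Ccl2, Lcn2, Il23a, Cxcl1 and Nfkbiz) were higher in basal WT than in ML WT cells. Of all genes tested 28.9% were higher in basal WT and 25.7% higher in ML WT cells. Basal markers stood in ML KO at 2.87%, 3.11% and 2.76% of the mean basal WT sum. The part of admixed cells in the result was not tested.

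One KO mouse stood above its group in all 3 populations. KO replicate 1 was the highest of the 3 KO libraries for 23 of the 33 genes in basal cells, for 28 in LP and for 27 in ML, where it was highest for 30.4%, 28.3% and 36.9% of all genes tested. Its median deviation from the group mean over the 33 genes was 0.73 (ML), 0.5 (LP) and 0.23 (basal) on the log2(CPM + 1) scale, against -0.03, -0.01 and -0.04 over all genes. Leaving this mouse out reduced the ML count from 13 to 8 (Tnf, Il23a, Ccl2, Ccl20, Tnfaip3, Icam1, Lcn2 and Ptgs2) and left the LP count at 4, with Nfkbia in place of Cd83. Leaving out WT replicate 2 also gave 8 in ML, and 2 in LP (Ccl2 and Ccl20). How the share of all genes called changed on leaving out a mouse is not given here. In WT mice 5 genes (Csf3, Lif, Cxcl1, Cxcl2 and Nfkb1) were highest in replicate 1 in all 3 populations, and the same 5 were highest in replicate 1 in all 3 KO groups, as were 2.43% of all genes tested in all 6 groups.

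**Figure D5:**
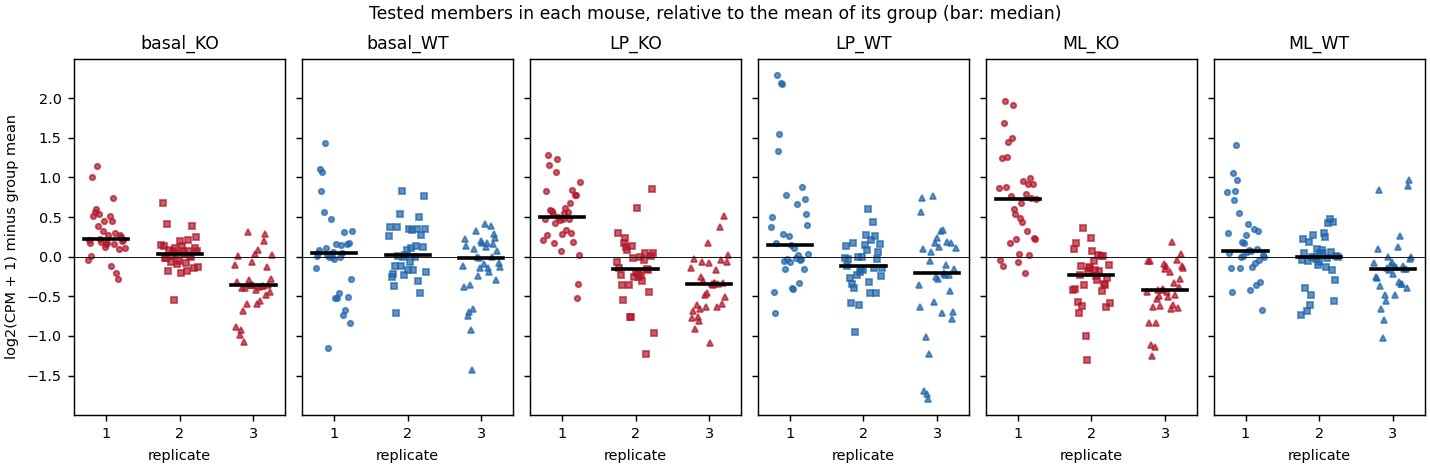
Level of each of the 33 tested genes, as log2(CPM + 1) minus the mean of its group, in the 3 replicates of each of the 6 groups, with a bar for the median. In the 3 KO groups the points of replicate 1 lie mostly above 0, with medians of 0.23, 0.5 and 0.73, and those of replicate 3 mostly below it.

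The genotype effect differed between populations by a test of the difference itself. It was larger in ML than in LP for 8 of the 33 genes (Ptgs2, Tnf, Icam1, Tnfaip3, Lcn2, Nfkbiz, Il23a and Cxcl1), where 6.37% of all genes tested differed, 5.15% that way and 1.22% the other. It was larger in ML than in basal cells for 7 (Icam1, Il23a, Lcn2, Ptgs2, Ccl2, Tnfaip3 and Nfkbiz), where 5.53% differed, 4.5% that way and 1.03% the other, and larger in LP than in basal cells for 1, Ccl2, where 1.09% differed, 0.389% that way and 0.704% the other. Of these 8, Ptgs2 had the lowest p, at -4.85 (SE 0.79, adjusted p = 0.000753) on the log2 scale, LP minus ML (-7.07 without WT replicate 3), and Icam1 had the lowest p between ML and basal cells, at 3.16 (SE 0.51, adjusted p = 0.000414), ML minus basal. The Ccl2 effect in LP exceeded that in basal cells by 5.35 (SE 1.09, adjusted p = 0.0186), a call lost on leaving out KO replicate 3 or any 1 WT mouse. The 3 differences share libraries and are not independent of each other.

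Since each mouse gave all 3 populations, the same differences were also fitted with the mouse as a block. That raised the counts from 8 to 17 for LP against ML, from 7 to 13 for ML against basal cells and from 1 to 3 for LP against basal cells, and no call of the fit without the block was lost. Over all genes tested the block called 11%, 8.99% and 2.98% for these differences, where the fit without it called 6.37%, 5.53% and 1.09%. The genes added between LP and ML were Lif, Rel, Csf3, Nfkbia, Tnfaip2, Nfkb1, Cxcl5, Cxcl2 and Birc3. Without WT replicate 2 the counts without the block were 3, 2 and 0, and without KO replicate 1 they were 5, 4 and 1. Nfkbiz between ML and basal cells was lost on leaving out any 1 mouse, and Cxcl1 between LP and ML on leaving out any mouse but WT replicate 3.

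Promoters of 6 of the called genes are shown because NF-kB acts through a short DNA element close to the start of many of its targets. RefSeq promoter windows (GRCm38.p6, 250 bases before the start site) were used for 25 of the 35 genes, 11 of them among the 15 called in a KO against WT comparison. Promoters on the chromosome of Map3k8 were left out before counting, so whether that gene has a window is not given here. Both strands were searched for the NF-kB consensus, a motif of 10 letters, and overlapping matches were counted apart. At least 1 match was found for 15 of the 25 genes, where 8.23% of all genes with a window that was kept had one. Of the genes with a window, 7 of 11 called and 8 of 14 uncalled ones held a match. The promoters of Tnf, Ptgs2, Icam1 and Lcn2, 4 of the genes with the lowest p in ML, had no exact match in this window. Sites 1 letter off the motif were not counted. Ccl2, Cd83, Il23a and Nfkbiz had no entry in the promoter table. The sequences that follow run 5′ to 3′ on the strand of the gene, with matches in capitals.
Tnfaip3 promoter, chr10:19015411-19015660, - strand: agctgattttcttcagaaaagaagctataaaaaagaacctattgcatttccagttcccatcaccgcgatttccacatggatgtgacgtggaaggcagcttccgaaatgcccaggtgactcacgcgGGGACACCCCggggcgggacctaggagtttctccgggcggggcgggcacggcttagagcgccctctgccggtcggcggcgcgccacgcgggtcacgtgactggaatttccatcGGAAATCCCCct
Ccl20 promoter, chr1:83116516-83116765, + strand: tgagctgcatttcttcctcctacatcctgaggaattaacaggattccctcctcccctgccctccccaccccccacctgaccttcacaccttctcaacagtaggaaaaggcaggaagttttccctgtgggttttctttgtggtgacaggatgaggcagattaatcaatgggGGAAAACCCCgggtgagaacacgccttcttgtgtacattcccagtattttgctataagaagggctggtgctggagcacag
Cxcl1 promoter, chr5:90890995-90891244, + strand: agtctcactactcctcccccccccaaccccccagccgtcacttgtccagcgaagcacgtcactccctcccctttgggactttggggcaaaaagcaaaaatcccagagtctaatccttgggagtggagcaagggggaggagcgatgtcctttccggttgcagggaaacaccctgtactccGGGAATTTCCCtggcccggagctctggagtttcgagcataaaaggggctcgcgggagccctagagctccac
Rel promoter, chr11:23770970-23771219, - strand: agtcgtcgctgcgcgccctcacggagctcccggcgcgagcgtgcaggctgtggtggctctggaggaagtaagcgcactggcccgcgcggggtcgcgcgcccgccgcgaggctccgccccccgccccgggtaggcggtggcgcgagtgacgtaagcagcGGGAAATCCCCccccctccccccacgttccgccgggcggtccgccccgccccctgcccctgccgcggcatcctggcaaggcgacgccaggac
Lif promoter, chr11:4257318-4257567, + strand: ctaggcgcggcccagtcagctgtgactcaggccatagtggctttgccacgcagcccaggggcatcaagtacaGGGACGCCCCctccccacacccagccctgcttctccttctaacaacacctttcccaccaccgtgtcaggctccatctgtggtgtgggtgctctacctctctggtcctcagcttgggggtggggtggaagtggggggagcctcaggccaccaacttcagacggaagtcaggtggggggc
Il6 promoter, chr5:30012864-30013113, + strand: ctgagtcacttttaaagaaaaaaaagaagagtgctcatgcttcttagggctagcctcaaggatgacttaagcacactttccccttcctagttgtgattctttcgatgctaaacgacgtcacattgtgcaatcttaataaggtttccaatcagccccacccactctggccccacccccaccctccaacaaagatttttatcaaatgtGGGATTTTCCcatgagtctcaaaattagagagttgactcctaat

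The Tnfaip3 window held matches that began 125 and 12 bases before the start. Those of Cxcl1 began at 71 and 70 bases before the start and overlap, as do those of Rel at 92 and 91. Ccl20 had a match at 80 bases, Lif at 178 bases and Il6 at 44 bases before the start. Tnfaip2 (match GGAGGGCCCC, 24 bases before the start of a transcript) lies in a window that overlaps another transcript of the gene, and that window is not shown. A match describes the letters of the window and shows no binding.

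Of 50 NF-kB signalling genes outside the set, comprising receptors, adaptors, kinases and regulators, 1 was higher in KO basal cells, 4 were higher and 6 lower in LP, and 5 were higher and 0 lower in ML. Over all genes tested 2.96% were higher in basal cells, and 8.28% were higher and 6.63% lower in LP. In ML 11.8% of all genes were higher and 3.5% lower. The counts of higher genes in the list lie near or under these shares. The 6 lower genes in LP are a larger share of the list than of all genes, a difference that was not tested. Il1rn, the interleukin 1 receptor antagonist, was higher in all 3 populations, with log2 fold changes of 3.07 (basal), 1.86 (LP) and 4.65 (ML). In ML the receptor genes Tlr2 (3.65), Il1rap (3.61) and Tnfrsf11a (4.32), which encodes RANK, were next on the log2 scale. In LP the kinase gene Ikbke (2.14) and the receptor genes Cd40 (2.89) and Tlr2 (1.38) were higher. Il1rn stood at 19.5 ± 12 CPM in ML KO and 0.73 ± 0.206 in ML WT cells (SD, n = 3).

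Of 43 genes outside the set that were listed as NF-kB targets, 40 were tested. In ML 15 were higher and 1, Nuak2 (-1.55), was lower in KO, with a median log2 fold change of 1.31 against 0.02 for all genes, of which 11.8% were called higher and 3.5% lower. In LP 8 were higher and 1 lower with a median of -0.02, where 8.28% and 6.63% of all genes were called, and in basal cells 3 were higher, Ehf (2.43), Tap1 (1.81) and Ccl5 (3.49), with a median of 0.05, where 2.96% of all genes were called higher. Ccl5, a T cell chemokine, was higher in all 3 populations, by 4.79 in LP and 5.78 in ML on the log2 scale. The chemokine gene Cxcl14 had the lowest p in ML, with 73.2 ± 29.8 CPM in KO and 1 ± 0.494 in WT cells (SD, n = 3), followed by the transcription factor genes Cebpb (1.87) and Ehf (2.33). In LP Ccl5 was followed by Il34 (2.11), another ligand of the Csf1 receptor, Bcl2a1b (2.57; its near-identical copies make its count uncertain) and Tslp (1.90). Csf2, S100a9 and Mucl1 failed the filter. Whether NF-kB acts on each listed gene in these cells was not tested, nor was the part of the marker differences given above.

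The genes not called between genotypes by the edgeR fit were Ltb, Csf1, Csf3, Cxcl2, Cxcl5, Cxcl16, Nfkb1, Nfkb2, Rela, Relb, Nfkbia, Nfkbie, Nfkbid, Bcl3, Birc3, Traf1, Map3k8 and Sod2. Other settings called Csf1, Cxcl2, Cxcl5 and Nfkbia as given above. In LP, edgeR also called Traf1 without KO replicate 2 (adjusted p = 0.044) and Birc3 without WT replicate 1 (0.041). With the replicate number as a block it called Nfkbia in LP (0.043) and Csf3 (0.011) and Nfkb1 (0.024) in ML. The scarcest of the uncalled genes was Ltb, between 0.144 and 2.39 CPM over the 18 libraries, and the widest range was that of Cxcl2, between 4.02 and 2240 CPM. Il1b had 98 reads in LP KO, 83 of them in replicate 3, 40 in ML KO, 23 in basal KO, 7 each in basal WT and LP WT and 2 in ML WT libraries. Il1a had 23, 4, 29, 0, 26 and 10 reads in the basal KO, basal WT, LP KO, LP WT, ML KO and ML WT libraries. Neither was tested.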

How the data were processed

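Total RNA was extracted with the miRNeasy micro kit and libraries were made with the Illumina TruSeq RNA v2 protocol, per the labels. The authors deposited raw counts of reads per gene beside gene lengths. These counts came from featureCounts on mm10, per the submitters' processing notes. The aligner, annotation and strand setting were not given in the sources used here. Reads of antisense partners therefore cannot be told apart. The 18 single-library files equalled the table of 27179 genes.

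Genes were named by matching 25275 of the gene IDs to symbols. The 1904 without a symbol held 1.6% of counts and stayed in the fit. filterByExpr left 16466 genes, including 33 of the 35 members. The edgeR 4.0.16 quasi-likelihood test (R 4.3.3; TMM scaling, factors 0.832 to 1.19) used all 18 libraries with 1 mean per group for 9 comparisons, with p-values adjusted by Benjamini-Hochberg over all genes tested at 0.05. The design named this test; its robust estimate and newer quasi-dispersion method were set later, with the data at hand, and edgeR's default settings are given as an alternative chosen after seeing the data. CPM are TMM-scaled, and RPKM divide them by the deposited length. Total counts of 5.97 to 39.19 M set the precision of low genes. The test was also run on simulated counts.

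Members and lists were chosen with earlier results of these data known. By rule, genes called between genotypes are given in every library, the 6 of lowest p per WT comparison with levels, the others by range, and up to 4 of lowest p per pathway list. Any gene named beyond this rule was picked with its values known. Libraries of 1 mouse share its replicate number, per the labels, and their deviations from the group means correlated at 0.13 to 0.42, over 0.1 in 18 of 18 pairs. Replicates were separate mice, and none repeated another (chi-square per degree of freedom 22.6 to 204). Other alternatives were DESeq2 1.42.0, RLE scaling, no filter, thinning to 5.97 M reads, fewer libraries and replicate blocks. Where a group had 0 reads, folds were set against 3 reads over the group.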

Additional observations from a re-analysis of the deposited data

Results flagged for a closer look

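The genotype effect, KO against WT, differed between populations by a test of the difference for the genes that follow, with all values on the log2 scale and adjusted p from edgeR over all genes tested. LP minus ML, the difference was -4.85 for Ptgs2 (adjusted p = 0.00075), -2.75 for Tnf (0.0025), -2.51 for Icam1 (0.0035), -2.19 for Tnfaip3 (0.007), -2.77 for Lcn2 (0.0093), -1.79 for Nfkbiz (0.015), -3.09 for Il23a (0.015) and -4.05 for Cxcl1 (0.031). ML minus basal, it was 3.16 for Icam1 (0.00041), 3.54 for Il23a (0.0065), 2.87 for Lcn2 (0.0072), 3.29 for Ptgs2 (0.013), 6.03 for Ccl2 (0.017), 1.85 for Tnfaip3 (0.023) and 1.62 for Nfkbiz (0.03). LP minus basal, it was 5.35 for Ccl2 (0.019).

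Of these, Tnf, Icam1 and Ptgs2 between LP and ML, and Icam1 between ML and basal cells, stayed called in all 12 alternatives run. Without WT replicate 2 the ML minus basal difference of Ptgs2 was 2.52 (adjusted p = 0.12), and without WT replicate 3 it was 5.25. Without KO replicate 1 the LP minus ML difference of Lcn2 was -1.94 (adjusted p = 0.099). Without WT replicate 3 that of Il23a was -2.45 (adjusted p = 0.14), and the ML minus basal difference of Ccl2 was 4.9 (adjusted p = 0.16).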

How the results depend on the processing

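Over 14 alternatives, the 94 calls on single genes gave 1145 values, of which 1033 stayed called in the same direction, 112 were no longer called and 0 reversed. In KO against WT, 7 calls in ML (Tnf, Il23a, Ccl2, Tnfaip3, Icam1, Lcn2 and Ptgs2) and 2 in LP (Ccl2 and Ccl20) held under every alternative run. Counts of called genes that moved by over 1.5 times were, in basal cells, 2 by DESeq2, 2 with only the 6 libraries of the population and 1 with the replicate number as a block, against 0. Leaving out 1 mouse at a time gave 0 calls in basal cells throughout, 2 to 5 in LP and 8 to 15 in ML. For the difference in genotype effect it gave 3 to 7 between LP and ML, 0 to 1 between LP and basal cells and 2 to 8 between ML and basal cells. The mouse as replicate block gave 17, 3 and 13 for those differences, and 26, 25 and 23 for WT LP against ML, LP against basal and ML against basal. The replicate number as a block across genotypes gave 6 in LP and 17 in ML, but KO and WT mice share only a number: 4 of 9 same-number pairs correlated over 0.1 (-0.15 to 0.39). DESeq2 called 5 in LP and 15 in ML, and edgeR's default settings 4 and 15. The cause of these shifts was not tested. Shares of all genes called under these alternatives are not given here, apart from the mouse block on the differences. A shift in these counts is therefore not read as particular to these genes. Reads thinned to 5.97 M per library gave 3 in LP and 13 in ML. Depth limits Ccl20, Cd83, Ccl2 and Il6 in ML WT most, since they had few or no reads there.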
